A study of Mus musculus with 2 samples.

Results

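Monocytes that held the transcript of the receptor Mincle (Clec4e) at high counts together with versican (Vcan) were examined among innate immune cells of the mouse liver. A cell was taken as a member when at most 25% of its counts came from mitochondrial genes, Clec4e had 3 or more counts, Vcan was above 0, at least 2 of the 4 genes Gpr84, Olr1, Adora2b and F10 were above 0, and the 3 genes Cd209a, Cd5l and Cxcr2 were at 0. Members were thus chosen by the measured counts of these 9 genes, whose values are given as description only. In all, 154 of 15384 cells met this rule. The cells were CD45.2+ CD11b+ and negative for CD90.2, B220, NK1.1 and SiglecF, sorted from the livers of 4 mice, 1 per group: Egr2fl/fl and Lyz2Cre/+.Egr2fl/fl, each on normal diet (ND) or after 7 weeks of a high-fat diet without choline and with defined amino acids (CDA-HFD). All 4 mice carried the floxed Egr2 allele, and the Lyz2Cre/+.Egr2fl/fl mice carried Cre under the Lyz2 promoter, which is active in myeloid cells. Mice given the CDA-HFD were males aged 6 to 12 weeks at its start. Cells of the 4 mice were marked with hashtags and pooled into 1 library. With 1 mouse per group no difference between mice could be tested, and cells of 1 mouse are not replicates. Every interval given below is a 95% interval that covers counting error only.

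Ly6Chi monocytes leave the blood for the injured liver, where they can be activated by products of dying cells and then mature into macrophages. Mincle is a C-type lectin that binds microbial glycolipids and a protein released by dead cells, and it signals through the Fc receptor gamma chain and the kinase Syk. Clec4e is known as a gene induced in macrophages by inflammatory stimuli, and versican and coagulation factor XIII (F13a1) are typical transcripts of classical monocytes. Gpr84 is a receptor for medium-chain fatty acids, Olr1 is a scavenger receptor for oxidised low-density lipoprotein, Adora2b is an adenosine receptor, and F10 encodes coagulation factor X.

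Clec4e lies on mouse chromosome 6, at chr6:123281789-123289871 of GRCm38.p6, 6520 bases from Clec4d, which encodes a partner lectin. Promoters from RefSeq, running from 250 bases before to 50 after the start of the gene, are shown for Clec4e, on which the rule rests, and for Tnip3, Cxcl2 and Sod2, which were among the 12 highest genes in members against Vcan-positive cells with Clec4e at 0. In the Clec4e line capitals mark the C/EBP motif TTGCNNAA, and in the other lines they mark the NF-kB motif, which is GGG and CC separated by 5 free bases; both strands were searched, and overlapping matches run together. The lines are given 5′ to 3′ on the strand of the gene, which is minus for Clec4e and plus for the others.
Clec4e, chr6:123289822-123290121: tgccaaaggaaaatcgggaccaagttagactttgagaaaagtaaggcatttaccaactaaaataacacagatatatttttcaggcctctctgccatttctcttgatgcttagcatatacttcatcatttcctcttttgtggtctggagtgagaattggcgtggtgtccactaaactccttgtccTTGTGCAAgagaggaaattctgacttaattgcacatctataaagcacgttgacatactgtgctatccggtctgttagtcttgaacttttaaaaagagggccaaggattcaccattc
Tnip3, chr6:65590148-65590447: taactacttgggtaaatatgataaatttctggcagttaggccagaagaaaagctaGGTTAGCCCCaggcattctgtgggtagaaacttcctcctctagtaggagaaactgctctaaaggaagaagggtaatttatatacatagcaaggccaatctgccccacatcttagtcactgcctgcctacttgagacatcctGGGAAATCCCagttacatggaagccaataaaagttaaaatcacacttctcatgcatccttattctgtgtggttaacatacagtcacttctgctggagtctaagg
Cxcl2, chr5:90903649-90903948: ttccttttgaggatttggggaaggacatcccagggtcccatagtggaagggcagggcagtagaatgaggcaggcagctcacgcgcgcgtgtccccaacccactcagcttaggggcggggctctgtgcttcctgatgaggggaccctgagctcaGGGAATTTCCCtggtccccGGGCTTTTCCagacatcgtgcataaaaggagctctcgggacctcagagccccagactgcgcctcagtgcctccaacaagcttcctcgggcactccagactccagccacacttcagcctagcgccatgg
Sod2, chr17:13007589-13007888: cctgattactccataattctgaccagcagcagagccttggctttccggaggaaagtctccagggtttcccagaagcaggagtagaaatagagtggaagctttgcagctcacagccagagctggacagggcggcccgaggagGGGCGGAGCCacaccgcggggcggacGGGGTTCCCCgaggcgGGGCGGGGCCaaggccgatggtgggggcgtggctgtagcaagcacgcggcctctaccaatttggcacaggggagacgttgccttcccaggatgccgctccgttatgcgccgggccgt
The Clec4e promoter held no match to the NF-kB motif, 1 match to C/EBP and 1 to the hypoxia motif ACGTG. A gene was counted as holding a motif when any of its promoters held it. Among the 12 genes highest in members against Vcan-positive cells without Clec4e, 8 held the NF-kB motif (Tnip3, Cxcl2, Sdc4, Sod2, Ptgs2, Marcksl1, Fas and Txnrd1). Of all 27025 genes with a promoter 53.5% held it. The AP-1 motif TGANTCA stood in 3 of the 12 (8.97% of all genes), which were Fas and the nearly identical copies Bcl2a1d and Bcl2a1a. C/EBP stood in 2 (12.2%) and the hypoxia motif in 2 (21.8%). The Egr motif GCGNGGGCG (6.27%) and the antioxidant motif TGACNNNGC (14.0%) stood in 1 each. Of the 6 genes that the rule required, 3 held the NF-kB motif (Vcan, Adora2b and F10). A match is a run of letters in the window and was not tested as a binding site.

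Members were counted almost entirely in the mice given the CDA-HFD. The ND Egr2fl/fl mouse had 1 member in 1723 cells (0.0580%, Clopper-Pearson interval 0.00147 to 0.323) and the ND Lyz2Cre/+.Egr2fl/fl mouse 3 in 1590 (0.189%, 0.0389 to 0.550). The CDA-HFD Egr2fl/fl mouse had 77 in 5885 (1.31%, 1.03 to 1.63) and the CDA-HFD Lyz2Cre/+.Egr2fl/fl mouse 73 in 6186 (1.18%, 0.926 to 1.48). The share was higher by 1.25 percentage points (Newcombe interval 0.869 to 1.58) on the CDA-HFD than on ND in Egr2fl/fl mice and by 0.991 points (0.549 to 1.33) in Lyz2Cre/+.Egr2fl/fl mice. Between genotypes on the CDA-HFD it differed by -0.128 points (Lyz2Cre/+.Egr2fl/fl minus Egr2fl/fl, -0.540 to 0.279), an interval that covers the counting of cells in these 2 mice and not the spread between mice.

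**Figure D1:**
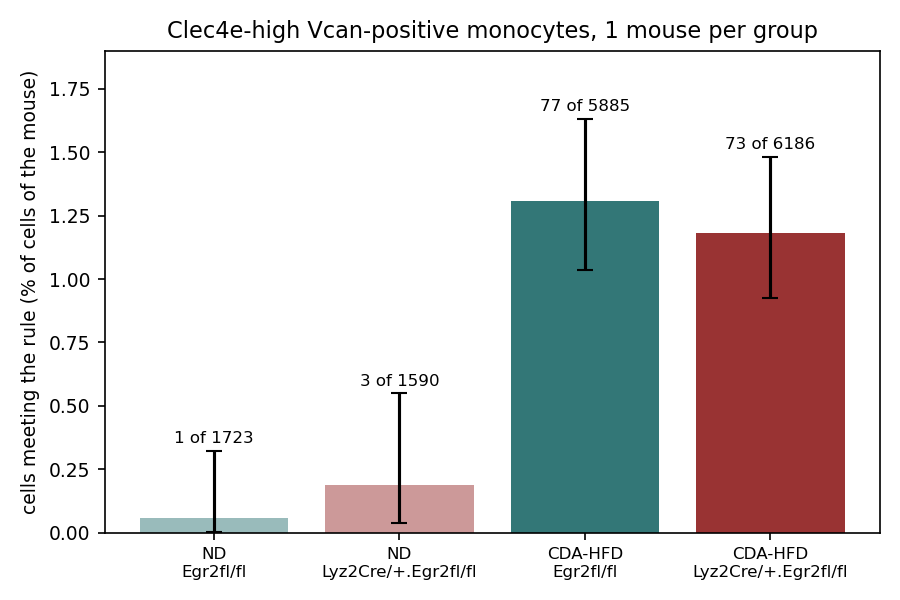
Share of cells that met the rule in each of the 4 mice, in percent of the cells of that mouse. Bars start at 0, error bars are Clopper-Pearson intervals, and the labels give members of all cells; both CDA-HFD mice lie above 1%, both ND mice below 0.2%.

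Most Vcan-positive cells were not members. Of the cells with Vcan above 0 and the 3 excluded genes at 0, members made up 77 of 395 (19.5%) in the CDA-HFD Egr2fl/fl mouse and 73 of 412 (17.7%) in the CDA-HFD Lyz2Cre/+.Egr2fl/fl mouse. The ND mice held 41 and 13 such cells, of which 1 and 3 were members, too few for a comparison. Clec4e itself was common on the CDA-HFD: 1845 and 1877 cells had 3 or more counts, and Vcan was the step that reduced them most, to 230 and 243 cells. The requirement for 2 of the 4 genes left 86 and 85 cells, Cd209a at 0 left 85 and 79, Cd5l removed none, and Cxcr2 at 0 left 77 and 73.

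The members were not uniform. In the 150 members of the CDA-HFD mice Clec4e ranged from 3 to 131 counts per cell with a median of 14, and 12 cells stood at the minimum of 3. F10 was counted in 139 of the 150, Gpr84 in 78, Adora2b in 69 and Olr1 in 58. Most, 112 cells, held 2 of the 4 genes, 32 held 3 and 6 held all 4, and Gpr84 with F10 was the most frequent pair (68 cells). Median depth was 15752 counts per cell in Egr2fl/fl and 15465 in Lyz2Cre/+.Egr2fl/fl members, with 2480 and 2581 genes. Members had at least 63.3% of their hashtag counts on the hashtag of their own mouse, and 31 of the 150 had less than 90%.

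A pair of comparison gates was used within the CDA-HFD mice, and both comparisons share the members. Vcan-positive cells with Clec4e at 0 and the same exclusions numbered 118 and 124 (median depth 12065 and 12836 counts, lower than in members), and cells that met every other part of the rule but had Vcan at 0 numbered 229 and 221. Counts were summed per mouse and gate and scaled to CPM, the counts of a gene per 1e6 counts of its gate, and for calls 1 CPM was added to both sides of a ratio. Genes were compared where, in each mouse, both gates together held 100 or more counts and 5% or more of the cells in either gate had the gene. Of these 3270 genes outside the rule, 82 (2.51%) were at least 2-fold higher in members than in Vcan-positive Clec4e-zero cells in both mice and 34 (1.04%) at least 2-fold lower. With TMM scaling (edgeR's correction for library composition) these numbers were 107 and 23. Against the cells with Vcan at 0, only 1 of the 82 was also called higher and 3 of the 34 also lower. As the gates differ by the rule, the ratios describe the cells and were not tested. A gene can be compared through its counts in either gate alone. Without the minimum of 100 counts, and with the 5% limit kept, 187 genes were higher and 315 lower of 8631.

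**Figure D2:**
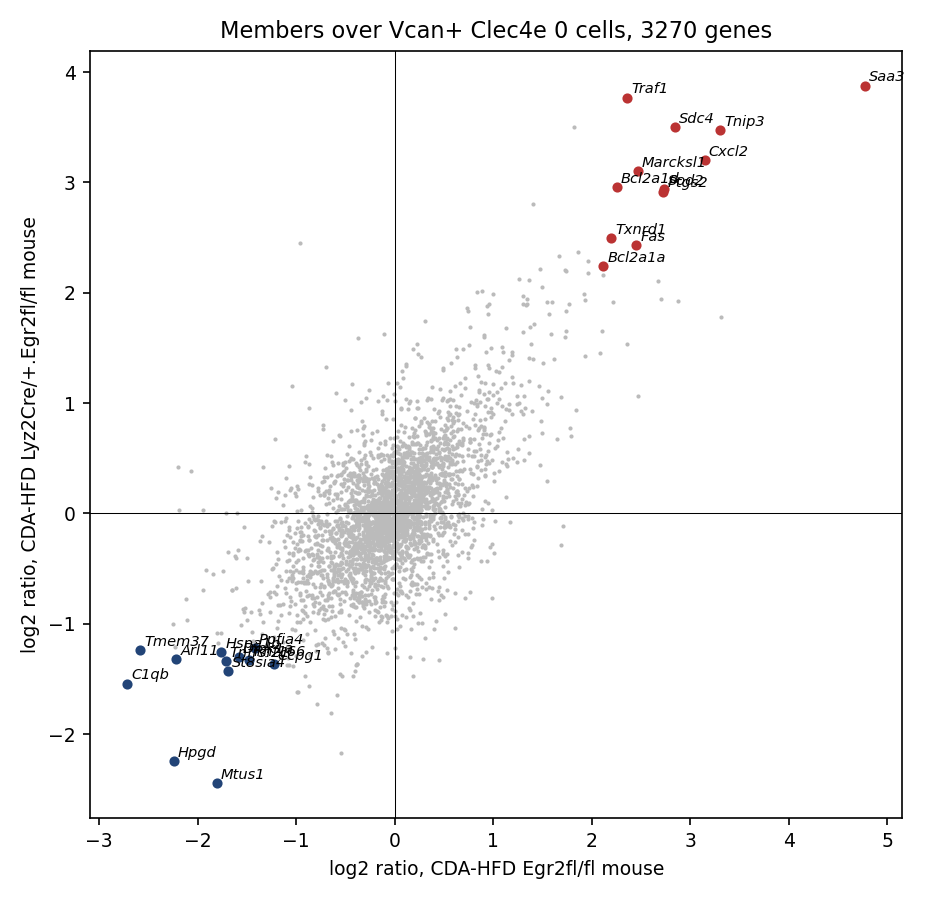
Log2 ratio of members over Vcan-positive Clec4e-zero cells for 3270 genes in the Egr2fl/fl mouse (x axis) and the Lyz2Cre/+.Egr2fl/fl mouse (y axis), both on the CDA-HFD. Red points are the 12 highest genes and blue points the 12 lowest, ranked by the smaller ratio of the 2 mice; Saa3 and Tnip3 lie at the upper right and Hpgd and Mtus1 at the lower left.

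Clec4d and Clec4n, lectin genes encoded near Clec4e, were higher in members. Clec4d, the partner of Mincle, was at 692 CPM in Egr2fl/fl and 534 CPM in Lyz2Cre/+.Egr2fl/fl members against 107 and 123 CPM in Vcan-positive Clec4e-zero cells, 6.44-fold (5.46 to 7.65) and 4.34-fold (3.70 to 5.11) higher. Clec4n (Dectin-2), on the same stretch of chromosome 6, was at 452 and 328 CPM against 68.4 and 84.3 CPM. Clec5a, a receptor on monocytes outside that cluster, was at 194 and 171 CPM against 68.4 and 40.6 CPM. With every cell thinned to 8000 counts, Clec4d was counted in 74.7% and 81.7% of members and in 23.6% and 33.9% of Vcan-positive Clec4e-zero cells (75.3%, 90.4%, 30.5% and 36.3% unthinned). Of 9 Mincle pathway genes that could be compared 2 were called higher, the partner lectin Clec4d and Malt1, a protease of the Card9 complex, and the adaptor Fcer1g (3796 and 3963 CPM against 3515 and 3587) and the kinase Syk (104 and 108 CPM against 124 and 126) stood at similar levels. Of the other C-type lectins, 2 of 11 were higher.

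Of the 28 receptors for danger signals, lipids and metabolites, 19 could be compared with Clec4e-high Vcan-zero cells. None of these was at least 2-fold higher in members and 2 were lower. Against Vcan-positive Clec4e-zero cells 15 could be compared, and 5 of them were at least 2-fold higher and none lower. The median log2 ratio of these 15 was 0.96 in Egr2fl/fl and 1.16 in Lyz2Cre/+.Egr2fl/fl, against -0.03 and -0.02 over all genes. Fpr2, a formyl peptide receptor, was at 158 and 207 CPM against 33.2 and 54.2 CPM in Vcan-positive Clec4e-zero cells. Ptafr, the receptor for platelet-activating factor, was at 289 and 264 CPM against 85.6 and 73.2 CPM. C5ar1, the receptor for complement C5a, was at 124 and 224 CPM against 36.4 and 70.8 CPM, and the other called genes were Tlr2 and Trem1, an amplifier of inflammatory signals. The receptors of the rule followed its terms and are not a finding: Gpr84 was at 106 and 144 CPM in members, Olr1 at 100.5 and 46.3 CPM and Adora2b at 72.7 and 68.6 CPM.

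Chemokines and the interleukin-1 axis came next. Against Clec4e-high Vcan-zero cells, 1 of 19 comparable cytokine and chemokine genes was higher in members (Ccl2) and 2 were lower (Cxcl3 and Tnf). Cxcl2 was counted in 43.3% of those cells and 38.7% of members, and Spp1 in 34.0% and 21.3%. Against Vcan-positive Clec4e-zero cells 5 of 15 comparable genes were higher (Ccl24, Cxcl16, Cxcl2, Il1rn and Spp1) and none lower. Of all genes 2.51% were higher and 1.04% lower. Cxcl2, which attracts neutrophils, was at 1174 and 778 CPM against 132 and 83.7 CPM, 8.92-fold (7.70 to 10.4) and 9.30-fold (7.77 to 11.2) higher. Its counts came from 58 of the 150 members, and no cell of the matrix held fewer than 6 Cxcl2 counts above 0, so low values of this gene read as 0. Il1b was at 2600 and 2578 CPM against 1194 and 1442 CPM, past 2-fold in the Egr2fl/fl mouse alone. The interleukin-1 receptor antagonist Il1rn was at 506 and 284 CPM against 49.8 and 81.9 CPM, so its ratio was 10.1 (8.01 to 13.01) in Egr2fl/fl and 3.47 (2.83 to 4.27) in Lyz2Cre/+.Egr2fl/fl. Nos2 and Arg1, enzymes of classical and alternative macrophage activation, had no counts in members, and Il6 had 6 and 11 counts.

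Of the inflammatory enzymes and inhibitors 5 of 13 comparable genes were higher (Saa3, Tnip3, Sod2, Ptgs2 and Mmp14) and none lower. Tnip3, an inhibitor of NF-kB signalling, was at 129 and 120 CPM in members against 12.1 and 9.85 CPM. Mitochondrial superoxide dismutase Sod2 was at 810 and 688 CPM against 121 and 88.6 CPM, 6.71-fold (5.74 to 7.88) and 7.76-fold (6.50 to 9.32) higher, and was counted in 88.3% and 84.9% of members. Ptgs2, the inducible cyclooxygenase, was at 171 and 202 CPM against 24.9 and 25.9 CPM. The acute-phase gene Saa3 was at 184 and 249 CPM against 5.75 and 16.0 CPM, but it was counted in 13 and 12 members, and a single cell held 49.3% and 32.7% of the sum. Its mean log2 ratio, the highest of the named genes at 4.33, was 3.57 without cells that held H2-Ab1 (an alternative chosen after seeing the data), below Traf1 at 4.11, Cxcl2 at 3.80, Tnip3 at 3.62 and Sdc4 at 3.61. Haptoglobin (Hp), a marker named with this population, was at 1212 and 1539 CPM against 777 and 828 CPM, 1.56-fold (1.45 to 1.68) and 1.86-fold (1.73 to 2.00) higher and below the 2-fold limit.

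Other genes of the 12 highest were of several kinds. The death receptor Fas was at 113 and 97.3 CPM against 19.8 and 17.2 CPM, and the signalling adaptor Traf1 at 165 and 130 CPM against 31.3 and 8.62 CPM. Bcl2a1d, a gene of the anti-apoptotic A1 family, was at 590 and 433 CPM against 123 and 54.8 CPM, and Bcl2a1a at 212 and 135 CPM against 47.9 and 27.7 CPM; these copies are nearly identical, so the split of reads between them is uncertain. Also among the 12 were Sdc4, a heparan sulphate proteoglycan at 235 and 171 CPM against 31.9 and 14.2 CPM, and Marcksl1 at 675.5 and 680.4 CPM against 121 and 78.2 CPM. Of the transcription factors 2 of 26 comparable genes were at least 2-fold higher, Bhlhe40 (213 and 170 CPM against 58.1 and 32.0) and the NF-kB subunit Rel (240 and 138 CPM against 93.9 and 36.3).

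Against Clec4e-high Vcan-zero cells no gene of the glycolysis and hypoxia list or of the Nrf2 antioxidant list was called higher in members. Some genes of glycolysis and of the antioxidant response were higher in members than in Vcan-positive Clec4e-zero cells. Among glycolysis and hypoxia genes 3 of 16 were called: Slc16a3, the lactate exporter (345 and 272 CPM against 104 and 89.2), Pfkp, a phosphofructokinase (88.2 and 64.6 CPM against 42.8 and 25.9), and Ero1l, an oxidase of the endoplasmic reticulum (82.5 and 54.2 CPM against 27.5 and 24.6). Of the Nrf2 antioxidant targets 3 of 10 were called. Thioredoxin reductase Txnrd1 was at 305 and 227 CPM against 65.8 and 39.4 CPM, haem oxygenase Hmox1 at 642 and 396 CPM against 187 and 105 CPM, and ferritin heavy chain Fth1 at 13805 and 9961 CPM against 5559 and 4750 CPM. In coagulation, fibrinolysis and provisional matrix 2 of 8 genes were called (Sdc4 and Serpinb8), while F13a1 was alike in both gates at 472 and 655 CPM against 475 and 665 CPM.

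Among the 3270 genes compared with Vcan-positive Clec4e-zero cells, those lower in members were fewer (34 against 82) and of mixed kinds. Without the minimum of counts they were more numerous (315 against 187). Hpgd, which degrades prostaglandins and is also a marker of Kupffer cells, was at 38.4 and 55.0 CPM against 185 and 265 CPM, with ratios of 0.207 (0.149 to 0.283) and 0.208 (0.159 to 0.269). Tsc22d3, a gene induced by glucocorticoids, was at 62.9 and 135 CPM against 220 and 306 CPM. Mtus1 was at 26.1 and 15.95 CPM against 93.9 and 91.1 CPM, and St8sia4, a sialyltransferase, at 26.1 and 36.7 CPM against 86.9 and 100.3 CPM. The cholesterol exporter Abcg1 was the 1 called lower of 15 lipid-associated macrophage genes (28.6 and 59.8 CPM against 86.3 and 121), and Spp1, the 1 called higher, was at 322 and 645 CPM against 90.1 and 56.0 CPM. With TMM scaling Abcg1 was short of 2-fold in the Lyz2Cre/+.Egr2fl/fl mouse, at a log2 ratio of -0.96. Heat shock genes Hspa1a (448 and 172 CPM against 1571 and 365) and Hspa1b were lower too, the only 2 called of 7 in their list. No interferon-stimulated gene of 8 was called, where so few genes would hold few calls at the 2.51% and 1.04% of all genes. Their median log2 ratios were -0.87 and -0.26, and the 14 genes of that list summed to 1086 and 1411 CPM in members against 1623 and 1799 CPM. C1qb and C1qc were called lower, but their counts came from at most 5 members of each mouse.

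Classical monocyte transcripts were abundant in members and in Vcan-positive Clec4e-zero cells alike. None of 19 comparable classical monocyte markers was at least 2-fold apart in both mice, where so few genes would hold few calls at the 2.51% and 1.04% of all genes, and their median log2 ratios were -0.09 and -0.15. Ly6c2, the gene of the Ly6C antigen, was at 1880 and 1996 CPM in members and 1885 and 2473 CPM in Vcan-positive Clec4e-zero cells. Plac8 was at 5347 and 6493 CPM against 5652 and 6482 CPM. The chemokine receptor Ccr2 was lower in members, at 453 and 657 CPM against 984 and 1053 CPM, with ratios of 0.461 (0.417 to 0.508) and 0.624 (0.574 to 0.679), so it passed 2-fold in the Egr2fl/fl mouse alone.

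Against Clec4e-high cells with Vcan at 0, some classical monocyte markers were higher in members and most MHC class II genes lower. Of 4731 comparable genes, 26 (0.55%) were at least 2-fold higher in members in both mice and 61 (1.29%) at least 2-fold lower. Among the 26 were 7 of 19 classical monocyte markers, among them Ly6c2 (1880 and 1996 CPM against 584 and 620), Chil3 (2085 and 2472 CPM against 553 and 1126), F13a1, Cd177, Ifitm6 and Plac8. Lower in members were 5 of 6 MHC class II genes, with H2-Ab1 at 1049 and 909 CPM against 4435 and 3463 CPM and Cd74, the invariant chain, at 1978 and 2138 CPM against 7781 and 6456 CPM. Also lower were 7 of 18 lipid-associated macrophage genes, with Apoe at 2159 and 4052 CPM against 10504 and 9920 CPM, and 4 of 11 macrophage markers (Axl and the 3 C1q genes). Nrf2 targets had median log2 ratios of -0.50 and -0.71, with Gclm, an enzyme of glutathione synthesis, called lower at 59.6 and 35.1 CPM against 124 and 119 CPM. The cytokine genes Tnf (19.6 and 14.4 CPM against 41.1 and 74.9) and Cxcl3, the complement receptor C3ar1 (35.1 and 62.2 CPM against 95.9 and 127) and the scavenger receptor Cd36 (82.5 and 152 CPM against 375 and 348) were also called lower. The growth factor gene Igf1 was at 21.2 and 18.3 CPM against 248 and 206 CPM. Sod2 was at 721 and 680 CPM in the Vcan-zero gate and Clec4d at 568 and 531 CPM, near their levels in members, and Il1rn was higher there (681 and 536 CPM).

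**Figure D3:**
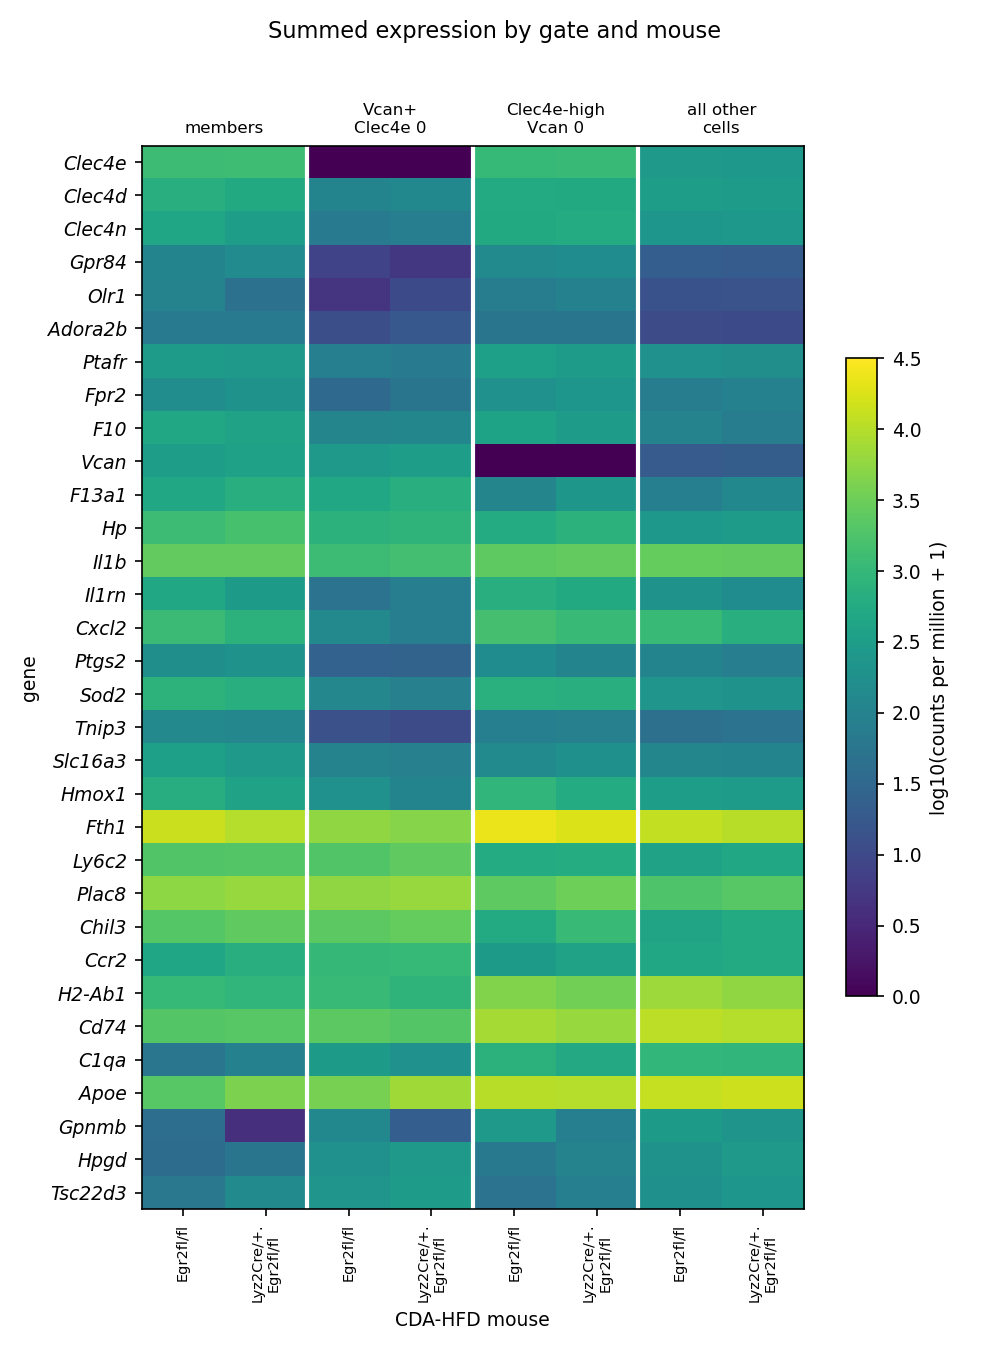
Summed expression of named genes as log10(CPM + 1), by gate and CDA-HFD mouse. Activation genes such as Sod2, Tnip3 and Clec4d are bright in members and in Clec4e-high Vcan-zero cells, and Ly6c2 and Chil3 are bright in members and in Vcan-positive Clec4e-zero cells.

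**Figure D4:**
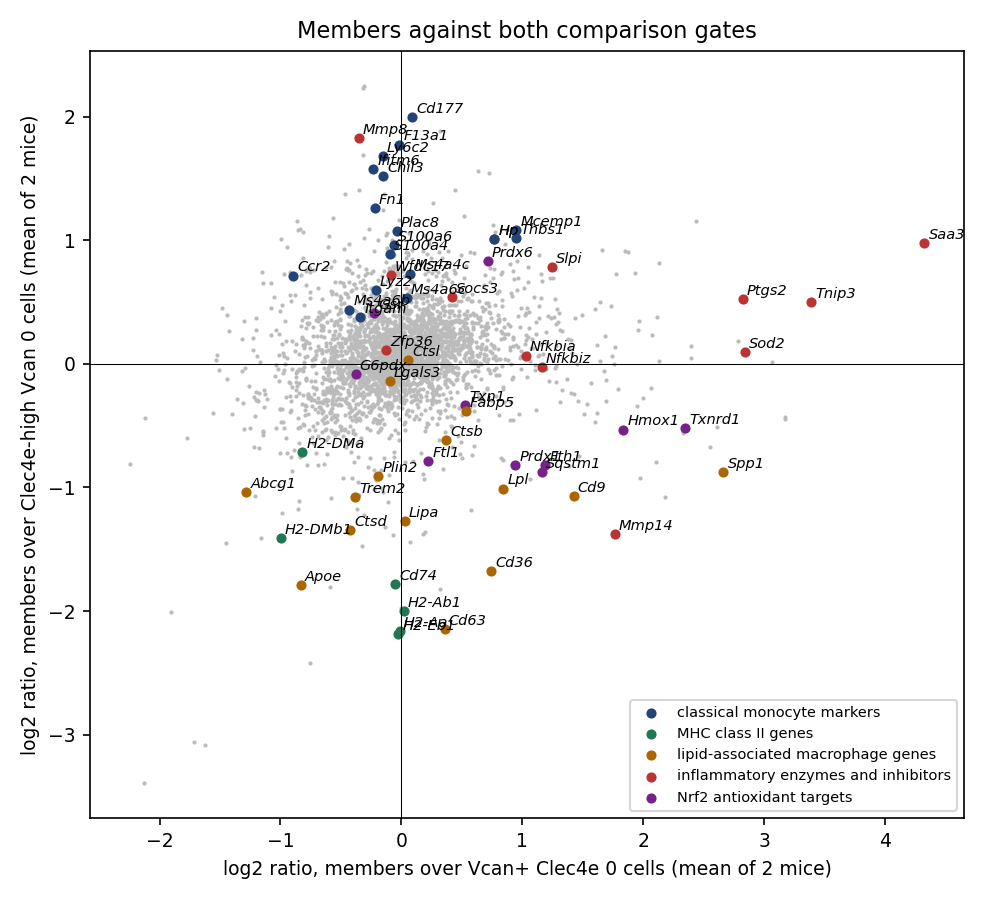
Mean log2 ratio over the 2 CDA-HFD mice of members over Vcan-positive Clec4e-zero cells (x axis) and over Clec4e-high Vcan-zero cells (y axis), for 3254 genes, with 5 gene lists in colour. Classical monocyte markers spread upwards at an x value near 0, MHC class II genes spread downwards, and Saa3, Tnip3, Ptgs2 and Sod2 lie far to the right; both axes share the members.

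Members differed among themselves in MHC class II. H2-Ab1 was counted in 34 of the 150 and not in 116. Those with H2-Ab1 had 958 CPM of Ly6c2 and 15982 CPM of Fth1, and those without had 2310 and 10301 CPM. Cxcl2 was at 415 CPM in the former and 1185 CPM in the latter, and Sod2 at 543 and 826 CPM. A C1q gene was counted in 7 members, 6 of which also held H2-Ab1. No value of H2-Ab1 below 8 counts above 0 occurs in the matrix, so a listed 0 does not separate absence from low counts.

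Within the Vcan-positive cells of the CDA-HFD mice with Cd209a, Cd5l and Cxcr2 at 0, some genes differed by the Clec4e count. The rule uses this count, and its end steps overlap the gates compared above, so the values are description only. From cells with 0 Clec4e counts (242 cells) through 1 or 2 (147), 3 to 9 (225) and 10 or more (193), Sod2 stood at 104, 188, 298 and 765 CPM. Clec4d stood at 115, 235, 306 and 611 CPM and Il1rn at 66.2, 82.4, 158 and 363 CPM over the same steps. Cxcl2 had no steady order, at 107, 393, 355 and 1000.1 CPM. Sod2 and Clec4d were higher at every step in each mouse, while Il1rn in the Lyz2Cre/+.Egr2fl/fl mouse was at 81.9 CPM in the first step and 68.3 CPM in the second. Tsc22d3 went the other way, at 264, 221, 179 and 86.9 CPM, as did Ccr2 at 1019, 949, 804 and 597 CPM, both lower at every step in each mouse. Ly6c2 had no common order in the mice, at 1885, 2020, 2318 and 1659 CPM in the Egr2fl/fl mouse and 2473, 2380, 1840 and 2114 CPM in the Lyz2Cre/+.Egr2fl/fl mouse. Median depth also differed over these steps, from 12514 counts per cell to 15095. Just outside the rule, 6 cells with 2 Clec4e counts had 489 CPM of Sod2, and 12 members with 3 counts had 483 CPM. The 193 cells with only 1 of the 4 genes had 421 CPM of Sod2 and 365 CPM of Clec4d, and the 112 members with 2 had 607 and 491 CPM.

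Several markers of other cell types were listed at 0 in members, but the lowest value above 0 in the matrix was 22 for S100a9, 8 for Clec4f and Gzma, 7 for Cd5l and 6 for Fcna, so for these genes a 0 does not show absence. The 13 lymphoid markers summed to 49.8 and 48.7 CPM, and 9 of them, among them Cd3e, Trac, Nkg7, Cd79a and Ms4a1, were at 0 in both mice. The 15 neutrophil markers summed to 387 and 355 CPM with S100a9, Camp, Ltf and Ngp at 0 beside Cxcr2, which the rule set to 0, and S100a8 (133 and 118 CPM) and Csf3r (81.7 and 81.4 CPM) made up most of the sum. The 15 Kupffer cell markers summed to 814 and 764 CPM, against 1052 and 784 CPM in Vcan-positive Clec4e-zero cells, 1083 and 842 CPM in Clec4e-high Vcan-zero cells and 1536 and 1694 CPM in all other cells, with Clec4f, Fcna and Cd5l at 0, the last by the rule, and Id3 (662 and 640 CPM) making up most of the sum. The 13 dendritic cell markers summed to 283 and 236 CPM in members, above the 251 and 158 CPM of Vcan-positive Clec4e-zero cells and the 194 and 183 CPM of Clec4e-high Vcan-zero cells and below the 476 and 445 CPM of all other cells, with Ifi205 at 244 and 205 CPM in members; Cd209a, by the rule, Zbtb46 and Clec9a were at 0, as was albumin. The part of these markers in the results was not tested. As a gauge of free RNA, Vcan was counted in 1.30% of 77 cells of the CDA-HFD mice that held 3 or more of 8 lymphoid genes (interval 0.0329 to 7.02, median depth 7784 counts) and Clec4e in 15.6% (8.32 to 25.6), of which 6 cells had 3 or more counts. A Clec4e count of 3 thus also occurs in cells with lymphoid genes.

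Between genotypes, members of the CDA-HFD mice differed in few well-counted genes. Egr2 was at 45.7 CPM in Egr2fl/fl members (56 counts in 16 cells) and 36.7 CPM in Lyz2Cre/+.Egr2fl/fl members (46 counts in 8 cells), a ratio of 0.802 (0.531 to 1.21). In Vcan-positive Clec4e-zero cells it was at 39.6 and 0.616 CPM, and in Clec4e-high Vcan-zero cells at 66.3 and 12.7 CPM. Of the 46 counts in Lyz2Cre/+.Egr2fl/fl members, 14 lay in a single cell. Lyz2, whose locus carries the Cre, was at 20888 and 11622 CPM, and was lower in the Lyz2Cre/+.Egr2fl/fl mouse in every gate. Of 3146 comparable genes, 36 (1.14%) were at least 2-fold higher and 32 (1.02%) at least 2-fold lower in Lyz2Cre/+.Egr2fl/fl members. With TMM scaling the numbers were 24 and 39, and without the highest cell of each gene 26 and 21. With cells of at least 90% own hashtag they were 32 and 31, of which 13 and 18 were among the 36 and 32.

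Slc7a11, the cystine transporter, was the lowest of these genes, at 80.1 CPM in 21 Egr2fl/fl members and 11.2 CPM in 6 Lyz2Cre/+.Egr2fl/fl members, a ratio of 0.139 (0.0736 to 0.245). Vegfa was at 65.3 and 19.1 CPM, and the sterol synthesis genes Idi1 and Msmo1 at 80.9 and 24.7 CPM and at 63.7 and 22.3 CPM. Fabp5, a fatty acid binding protein, was at 256 and 92.5 CPM, and its paralog Fabp4 at 21.2 and 85.3 CPM. Mea1 had the highest ratio, 13.1 and 69.4 CPM, 5.31-fold (3.09 to 9.70), and was at 58.1 and 52.9 CPM in Vcan-positive Clec4e-zero cells. The heat shock genes Hspa1a (448 and 172 CPM) and Hspa1b (154 and 53.4 CPM) were lower in the Lyz2Cre/+.Egr2fl/fl mouse in members and in both other gates, but with cells of at least 90% own hashtag their log2 ratios in members were -0.46 and -0.65, short of 2-fold. The list with the most calls was that of lipid-associated macrophage genes, with 4 of 16 higher (Abcg1, Ctsl, Fabp4 and Spp1) and 2 lower (Cd63 and Fabp5). With TMM scaling 3 of the 4 fell short of 2-fold, Abcg1 at a log2 ratio of 0.97, Ctsl at 0.94 and Spp1 at 0.93. Of 16 cytokines and chemokines, Spp1 was called higher and Osm and Vegfa lower, and of 13 Nrf2 targets Slc7a11 was called lower. Spp1 was counted in 14 of 77 and 18 of 73 members, and the highest cell held 27.2% and 22.7% of its counts. Clec4e was at 1226 and 1277 CPM.

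**Figure D5:**
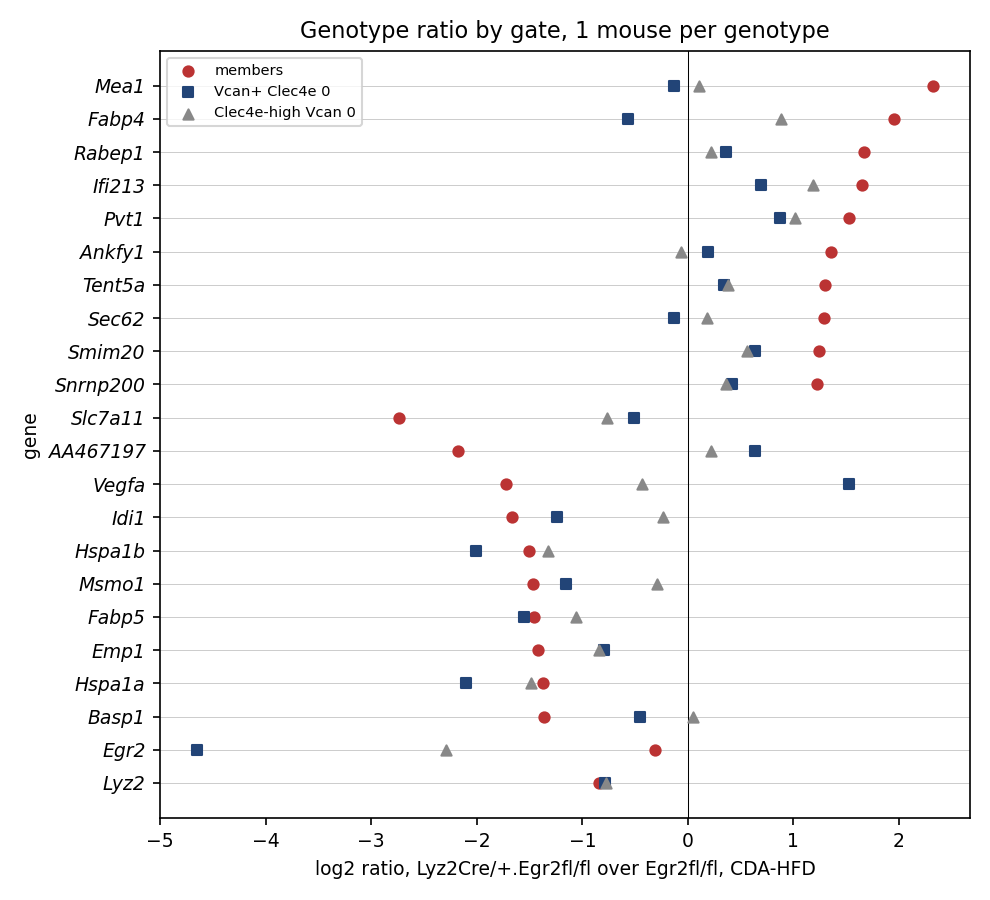
Log2 ratio of Lyz2Cre/+.Egr2fl/fl over Egr2fl/fl on the CDA-HFD for 20 named genes, Egr2 and Lyz2, in members (circles), Vcan-positive Clec4e-zero cells (squares) and Clec4e-high Vcan-zero cells (triangles), 1 mouse per genotype. Egr2 lies near 0 in members and far to the left in both other gates, and Lyz2 lies at a similar negative value in all 3.

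The 4 members of the ND mice were single cells of 13078 to 16096 counts. The Egr2fl/fl cell had 3 Clec4e and 3 Vcan counts with 4 of Adora2b and 7 of F10, and 30 of Ly6c2. The 3 Lyz2Cre/+.Egr2fl/fl cells had 6, 11 and 13 Clec4e counts, all 3 held F10, and Ly6c2 was at 13, 39 and 4 counts. No ratio to the CDA-HFD members was formed from so few cells.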

How the data were processed

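Gene counts per cell are raw counts that the authors deposited after read trimming, mapping to the GRCm38 transcriptome and hashtag demultiplexing with their TAS-Seq pipeline; the submitters' notes name R 4.2.1 and Seurat 4.1.1. Cells were grouped by the hashtag in the cell name (11 hashtag columns in the hashtag counts, 7 of no mouse of this study, not used); 1392 barcodes named doublets (8.29%) were left out, no barcode number was shared between cells, and 10 cells exceeded 25% mitochondrial counts. For 22 genes, among them Lyz2, Cxcl2, H2-Ab1, C1qa and Cd5l, the lowest value above 0 was 5 or more, so low values read as 0. Shares have Clopper-Pearson intervals, differences Newcombe intervals, CPM exact Poisson intervals and ratios exact binomial intervals of the split of counts; all cover counting error only, and no test between mice was made. Alternatives included edgeR 4.0.16 TMM factors, other gates and thinning to 8000 counts (seed 1). Code was tested on simulated data (Python 3.11.15, numpy 2.4.6, scipy 1.17.1). Named genes were those of the rule, of 27 lists and the 12 highest and 12 lowest ratios against Vcan-positive Clec4e-zero cells or 10 in each direction between genotypes. The members and lists were chosen with earlier results of these data known. Some marker genes are not reported here.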

Additional observations from a re-analysis of the deposited data

Results flagged for a closer look

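Of 198 listed genes with at least 100 counts in each gate, 100 had genotype ratios of opposite sign in members and in another gate of the same mice, and in 9 both ratios were at least 1.5-fold, in opposite directions. The differences were not tested, there is 1 mouse per genotype, and groups of 1 mouse allow no check for an outlying sample. As log2 ratios of Lyz2Cre/+.Egr2fl/fl over Egr2fl/fl, Cd36 was at 0.88 in members and -2.53 in Vcan-positive Clec4e-zero cells, Ctsl at 1.01 and -1.18, Spp1 at 1.00 and -0.68, Il1rn at -0.83 and 0.70, Malt1 at -0.79 and 0.62, and Hk2 at -0.66 and 0.81. Against Clec4e-high Vcan-zero cells, C1qa was at 0.70 and -0.63, C1qc at 0.64 and -0.62, and Clec4b1 at -0.65 and 0.65. The C1qa counts of members came from 3 and 2 cells.

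Egr2 in members over Clec4e-high Vcan-zero cells had a log2 ratio of 1.46 in the Lyz2Cre/+.Egr2fl/fl mouse and -0.52 in the Egr2fl/fl mouse, and this difference was not tested either. The 46 Egr2 counts of Lyz2Cre/+.Egr2fl/fl members lay in 8 cells.

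Among the barcodes that the deposited names call doublets, which no comparison used, 12 of 1387 met the rule (0.865%), against 154 of 15384 cells of all 4 mice (1.00%), which lies within the interval of the doublets (0.448 to 1.51), and 4 of 3313 cells of the ND mice (0.121%).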

How the results depend on the processing

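Shares, in percent, moved with the terms of the rule. In the order ND Egr2fl/fl, ND Lyz2Cre/+.Egr2fl/fl, CDA-HFD Egr2fl/fl and CDA-HFD Lyz2Cre/+.Egr2fl/fl, at least 3 of the 4 genes gave 0, 0, 0.391 and 0.242, and Vcan-positive cells as the denominator gave 2.44, 23.1, 19.5 and 17.7. The CDA-HFD minus ND difference in Lyz2Cre/+.Egr2fl/fl mice thus turned from 0.991 points to -5.36 (-36.3 to 13.1), from 3 members in 13 ND cells. With 1 or more of the 4 genes the shares were 0.290, 0.189, 2.85 and 2.83; with the rule applied after thinning to 8000 counts they had 0.889 and 0.773 and the ND Egr2fl/fl mouse 0, as it also had at 5 or more Clec4e counts. Against Vcan-positive Clec4e-zero cells 82 genes were higher and 34 lower of 3270. A minimum of 500 counts gave 21 and 2 of 814 genes, and no minimum of counts 187 and 315 of 8631. The 3-fold limit gave 33 and 2 of 3270. Thinned cells gave 61 higher genes (50 among the 82) and 21 lower (12 among the 34) of 1918. The number of genes compared thus differed between these settings. Against Clec4e-high Vcan-zero cells 26 genes were higher and 61 lower of 4731, and against all other cells 129 and 474 of 8932. TMM scaling gave 107 and 23. Between genotypes 36 genes were higher and 32 lower of 3146. A minimum of 500 counts gave 1 and 2 of 776 genes, and no minimum of counts 998 and 680 of 9445. Of the 3146 genes, 3-fold gave 4 and 4 and TMM 24 and 39. Thinned cells gave 6 (1 among the 36) and 11 (10 among the 32) of 1709. Without the highest cell of each gene, an alternative chosen after seeing the data, 21 genes were lower. With no minimum of counts the lower genes outnumbered the higher against Vcan-positive Clec4e-zero cells. Between genotypes they did so with TMM, with a minimum of 500 counts, with thinned cells and with cells of at most 40000 counts (25 higher, 32 lower). The cause was not tested. A reference of Vcan-positive Clec4e-zero cells with 2 of the 4 genes was not run, as it held 7 and 15 cells. No paired analysis was possible because each group is 1 mouse.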
